A study of Mus musculus with 15 samples.

Results

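Corticosteroid hormones act in the hippocampus through a pair of related nuclear receptors, and an enzyme renews the hormone inside cells. The levels of the 3 genes that encode them, of 32285 counted, were followed across nuclear classes and groups. Nr3c1 encodes the glucocorticoid receptor, Nr3c2 the mineralocorticoid receptor, and Hsd11b1 encodes 11β-hydroxysteroid dehydrogenase type 1, which in mice regenerates corticosterone from its inactive 11-keto form (in humans the hormone is cortisol). The genes were chosen by name, with earlier results of these data known. Single-nuclei RNA sequencing (snRNA-seq) covered tissue punches enriched for the dorsal hippocampal formation (dHF) of 15 wild-type C57BL6/J females, each of which gave 4 bilateral punches pooled in 1 library. The groups were 6 virgin nulliparous mice (NP), 4 dams with reproductive experience (control RE, labelled ControlPP) and 5 stress RE dams (labelled StressPP). The dams had been bred and had nursed a litter, whereas NP mice, of like age, had never been pregnant. Stress RE dams also had daily separation from their pups and limited nesting material in the later part of lactation. The labels and the methods of this assay give no age in weeks and no day of collection for these libraries. No mouse carried a transgene or a modified allele.

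The mineralocorticoid receptor binds corticosterone with high affinity and is largely occupied at resting hormone levels, whereas the glucocorticoid receptor has lower affinity and is engaged as levels rise with stress or the daily rhythm. Ligand-free receptors sit in the cytoplasm with Hsp90 chaperones and immunophilins, and move to the nucleus as transcription factors once hormone binds. The hippocampus is known as the site in the brain where the mineralocorticoid receptor is most abundant.

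On GRCm38, Nr3c1 (ENSMUSG00000024431) spans chr18:39410545-39519421 on the minus strand, Nr3c2 (ENSMUSG00000031618) spans chr8:76899442-77245012 on the plus strand, and Hsd11b1 (ENSMUSG00000016194) spans chr1:193221634-193264075 on the minus strand. Their gene bodies measure 108.9 kb, 345.6 kb and 42.4 kb. Hsd11b1 overlaps Lamb3 and 4930570N18Rik on the other strand and the transcript Gm38118 on its own strand, and the counts of overlapping features can be split or dropped. Levels are given as UMIs (unique molecular identifiers, 1 per captured RNA molecule) in 1000000 UMIs of a class in a mouse (CPM). Levels of different genes are compared per kilobase of gene body, a rough scale here because nuclear RNA holds introns and the library tags 3′ ends. The exception is the ratio of the receptors, taken on UMIs and compared between classes and groups.

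Each library had between 5789 and 12738 barcodes, with 40602582 to 96211264 UMIs. By group, barcodes ran from 6306 to 9088 in NP, from 10178 to 11582 in control RE and from 5789 to 12738 in stress RE libraries. The share removed as doublets rises with this number, so 318 to 661 were removed from NP and 829 to 1073 from control RE libraries. Of 134019 barcodes, 123907 were kept as nuclei, and 34 of 39 clusters were named from marker genes as 25 classes, 17 of them taken as dHF and 8 as tissue beside it. This split went by class name only, as no position of a nucleus was measured. Endothelial, pericyte and leptomeningeal nuclei were set among the 8. Gata3 GABAergic neurons and striatal projection neurons (10 nuclei or more in 8 mice only) were set among the 17. The names are those of marker lists, with thresholds chosen once the clusters were known, and 8556 nuclei stayed unnamed. Pairs of libraries shared 6 to 47 barcode sequences. For the thalamic, Lhx6 interneuron and CA3 classes, 1 or more clusters had more markers of another list than of their own among the 10 leading genes, so groups were compared there by cluster number. Cluster 3, with 6723 of the 7006 nuclei of the thalamic class, was led by Lef1, Synpo2, Rnf220, Adamts19 and Ntng1. Cluster 34, the whole vascular leptomeningeal class (1518 nuclei), also met the astrocyte list, had 0 of its own markers among its 10 leading genes, and was led by Slc7a11, Cped1, Ranbp3l, Slc6a20a and Ptgds. When each nucleus was instead assigned by its own marker UMIs, 25.1% (Gata3 GABAergic) to 98.6% (Cajal-Retzius) of the nuclei of a class kept its name, with 43% in newly formed oligodendrocytes, 58.1% in dentate granule neurons, 68.2% in vascular leptomeningeal nuclei, 79.6% in astrocytes and 84.9% in CA2.

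Nr3c2 was highest in hippocampal principal neurons and Nr3c1 in vascular, microglial and thalamic nuclei. Nr3c2 in CA2 pyramidal neurons reached 2349 CPM ± 207 (SD, n = 15 mice), above every other class in 15 of 15 mice. CA1 pyramidal neurons followed at 1559 CPM ± 135, dentate granule neurons at 1428 CPM ± 120, subiculum neurons at 1394 CPM ± 151 (n = 13) and CA3 pyramidal neurons at 1153 CPM ± 84.7. In CA2, the values were 2365, 2139, 2697, 2379, 2485 and 2155 CPM in the 6 NP mice, 2074, 2451, 1948 and 2395 CPM in the 4 control RE mice, and 2535, 2354, 2281, 2649 and 2327 CPM in the 5 stress RE mice. The lowest of these 15 values exceeded the highest value of any other class, which was 1767 CPM in CA1.

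Within mice, CA2 exceeded CA1 by 790 CPM ± 221 (SD of the paired differences, 15 of 15 mice), and CA1 exceeded dentate granule neurons by 131 CPM ± 122 (12 of 15 mice). Dentate granule and subiculum neurons differed by 31.5 CPM ± 164, less than the spread between mice. Subiculum exceeded CA3 by 242 CPM ± 105 (13 of 13 mice), and CA3 exceeded endothelial nuclei, the next class in the order, by 367 CPM ± 119 (15 of 15 mice). The classes come from the same nuclei, so these differences are descriptions without a test. Below the principal neurons, endothelial nuclei had 786 CPM ± 113, mossy cells 766 CPM ± 87.5 (n = 13), vascular leptomeningeal nuclei 728 CPM ± 94.9, astrocytes 716 CPM ± 64.2, pericyte or smooth muscle nuclei 668 CPM ± 156 and Adarb2 interneurons 610 CPM ± 91.3. No neighbours in this stretch differed beyond the spread between mice, and the step from Adarb2 interneurons to cortical excitatory neurons (489 CPM, n = 11) did, at 150 CPM ± 77.9 (11 of 11 mice). The remaining classes lay between 481 CPM in choroid plexus and 140 CPM in progenitors or neuroblasts (n = 9), and no neighbours there differed beyond the spread. Dentate granule neurons gave 48.5% of the 909645 Nr3c2 UMIs from 25.3% of the nuclei.

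**Figure D1:**
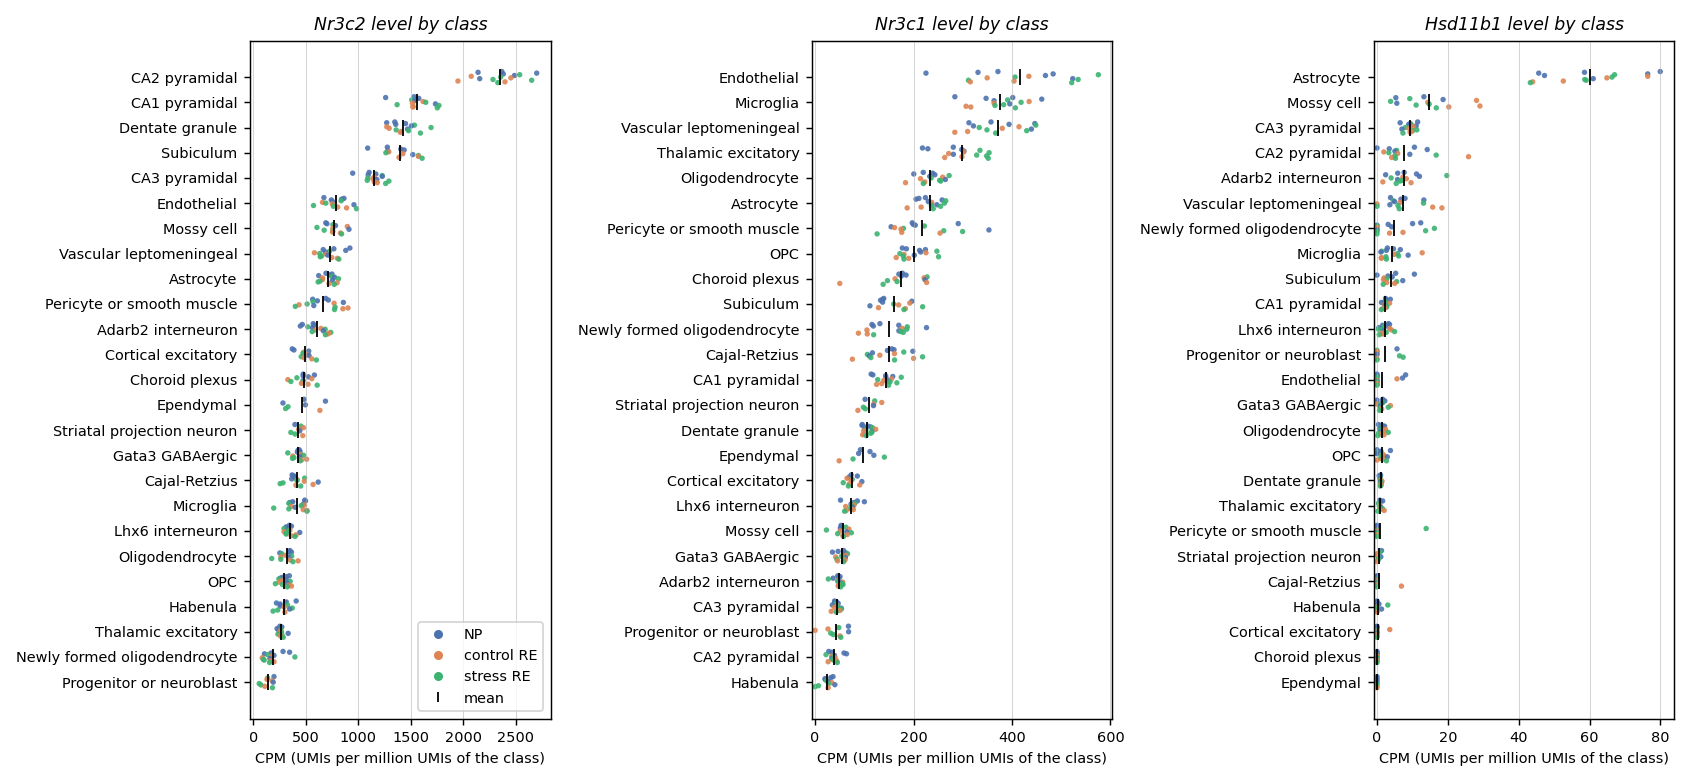
Level of each gene by class, in CPM on a linear axis, with 1 point per mouse coloured by group and a bar at the mean. CA2 stands apart from the other classes for Nr3c2 at 1948 to 2697 CPM, astrocytes for Hsd11b1 at 43.3 to 79.9 CPM, and Nr3c1 is led by endothelial nuclei, microglia and vascular leptomeningeal nuclei. Cluster 38, counted within CA3 here, had Nr3c2 at 2207 CPM.

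The highest levels of Nr3c1 lay outside the neurons of the hippocampus. Endothelial nuclei were at 417 CPM ± 100, microglia at 376 CPM ± 48.4 and vascular leptomeningeal nuclei at 372 CPM ± 54.5 (n = 15 each), and these neighbours did not differ beyond their spread. The highest class was endothelial in 8 mice, microglia in 4 and vascular leptomeningeal in 3. In microglia, the resident immune cells of the brain, the lowest, median and highest values were 284, 380 and 460 CPM in NP mice, and they ran from 307 to 435 CPM in control RE and from 365 to 418 CPM in stress RE mice. Thalamic excitatory neurons came next at 297 CPM ± 41.8, 75.1 CPM ± 64.2 below vascular leptomeningeal nuclei (14 of 15 mice) and 63.03 CPM ± 38.0 above oligodendrocytes (14 of 15 mice). Oligodendrocytes and astrocytes were both at 234 CPM, with SDs of 24.7 and 22.5.

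Among hippocampal neurons, Nr3c1 reached 161 CPM ± 32.1 in subiculum (n = 13), 143 CPM ± 17.4 in CA1 and 106 CPM ± 8.90 in dentate granule neurons. Mossy cells had 55.8 CPM ± 12.7 (n = 13), CA3 43.8 CPM ± 6.12 and CA2 38.7 CPM ± 11.1, and the lowest mean was in habenula neurons, at 24.5 CPM ± 11.7 (n = 12). CA2 was the lowest of all classes in 5 mice and habenula in 6. CA2 thus had the highest Nr3c2 and nearly the lowest Nr3c1 of the 25 classes, although the neighbours from mossy cells down to habenula did not differ beyond their spread. With nuclei assigned by their own marker UMIs, the lowest Nr3c1 was instead in Gata3 GABAergic neurons, at 45.9 CPM. By number of UMIs, dentate granule neurons held 23.9% and thalamic neurons 23.4% of the 138010 Nr3c1 UMIs.

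Hsd11b1 had its highest level in astrocytes, and few UMIs in all. Astrocytes had 60.1 CPM ± 12.0 (n = 15), the highest class in 15 of 15 mice, and gave 48.3% of all 4302 Hsd11b1 UMIs from 7.67% of the nuclei. The astrocyte values were 79.9, 58.6, 45.6, 76.4, 47.3 and 61.0 CPM in NP mice, 76.4, 64.9, 52.6 and 43.9 CPM in control RE mice, and 67.0, 66.3, 58.6, 59.0 and 43.3 CPM in stress RE mice. The 3 groups covered nearly the same range. Mossy cells followed at 14.6 CPM ± 8.01 (n = 13), which astrocytes exceeded by 44.3 CPM ± 14.8 (13 of 13 mice), the sole neighbouring step of non-zero levels beyond the spread. Mossy cells, with more RNA per nucleus, held more Hsd11b1 UMIs per nucleus than astrocytes, 0.324 against 0.218. CA3 had 9.28 CPM ± 1.52 and 18.9% of the UMIs, CA2 7.73 CPM ± 6.73, Adarb2 interneurons 7.63 CPM ± 4.40, CA1 2.37 CPM ± 0.706, oligodendrocytes 1.39 CPM ± 0.867 and dentate granule neurons 0.995 CPM ± 0.190. No Hsd11b1 UMI was found in 786 choroid plexus and 160 ependymal nuclei, which allows shares of nuclei with a UMI of up to 0.382% and 1.88%.

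Per kilobase of gene body, the level in CA2 was 6.80 CPM for Nr3c2, 0.355 CPM for Nr3c1 and 0.182 CPM for Hsd11b1. In microglia the receptor order was the opposite, with 3.45 CPM per kb of Nr3c1 and 1.21 CPM per kb of Nr3c2. Astrocytes were near equal for the receptors, at 2.15 CPM per kb of Nr3c1 and 2.07 CPM per kb of Nr3c2, with Hsd11b1 at 1.42 CPM per kb.

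Shares of nuclei with a UMI follow depth, which differed between classes, so each nucleus was also thinned to 1000 UMIs. After thinning, Nr3c2 was found in 88.7% of CA2 nuclei (100% unthinned), 69.5% of dentate granule nuclei (98.8%), 31.9% of microglia (52.1%) and 25.5% of oligodendrocytes (50.6%). Thinned shares for Nr3c1 were 30.7% in endothelial nuclei (52.6% unthinned), 30.2% in microglia (50.0%), 23.0% in thalamic neurons (89.9%) and 5.03% in CA2 (46.2%). Hsd11b1 was found in 5.49% of thinned astrocytes (16.5% unthinned, 95% Wilson interval 15.8% to 17.3%), 1.90% of mossy cells (23.9%), 0.850% of CA3 nuclei (13.2%), 0.167% of oligodendrocytes (0.358%) and 0.159% of dentate granule nuclei (0.905%). The median nucleus had 3398 UMIs in astrocytes and 2493 in oligodendrocytes. Intervals and limits cover counting error only.

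Free RNA in the suspension gives UMIs to nuclei that do not express a gene, and markers of dentate granule neurons were followed in other classes as a measure of it. The 8 dentate markers stood in oligodendrocytes at a median of 11.9% of their dentate level (5.43% to 264%), and Nr3c2 stood there at 22.4%. Not all of these markers measure free RNA in glia, as Dock10 stood above its dentate level in oligodendrocytes (264%) and microglia (106.5%), and Prox1 stood at 72.6% in oligodendrocytes. In microglia these values were 13.3% for the marker median and 29.3% for Nr3c2, in endothelial nuclei 13.2% and 55.0%, and in astrocytes 7.89% and 50.1%. Nr3c2 in astrocytes and endothelial nuclei was above the highest marker, which stood at 17.8% and 28.4%. Without the markers just named, the highest was Slc17a7 at 21.0% in oligodendrocytes and 25.7% in microglia, so that Nr3c2 was less far above it there than in astrocytes and endothelial nuclei. Astrocyte markers stood in oligodendrocytes at a median of 3.15% of their astrocyte level (1.42% to 8.44%) and Hsd11b1 at 2.31%, and in dentate granule neurons at 1.73% and 1.66%, so that Hsd11b1 in both classes was no higher than the median marker. In CA1 the astrocyte markers stood at 0.235% to 1.28% and Hsd11b1 at 3.94%.

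Nr3c2 in glia moved between mice together with neuronal transcripts. The 5 mice with the lowest Nr3c2 in oligodendrocytes (mice 37, 43, 72, 75 and 77) were also the 5 with the lowest summed level of Syt1, Snap25, Rbfox3 and Meg3 there, at no more than 1234 CPM against at least 1931 CPM in the other mice. The same 5 mice had the lowest values of both in microglia, with sums of no more than 1659 CPM against at least 2416 CPM, and 4 of the 5 lowest mice were shared in astrocytes. These 4 neuronal genes were picked after the values of Nr3c2 had been seen. Their sum stood at 32.2% of its dentate granule level in oligodendrocytes, 40.0% in microglia and 25.5% in astrocytes. Nr3c2 stood at 22.4%, 29.3% and 50.1% of its own dentate level there. Of the single genes, Rbfox3 was lowest, at 4.72% in oligodendrocytes and 6.4% in microglia, and Meg3 highest, at 63.7% and 79.7%. The oligodendrocyte sum had a median of 2555 CPM in NP (967 to 3408), 2133 CPM in control RE dams (1227 to 2742) and 1234 CPM in stress RE dams (906 to 2651), and its part in the receptor levels of glia was not tested.

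**Figure D2:**
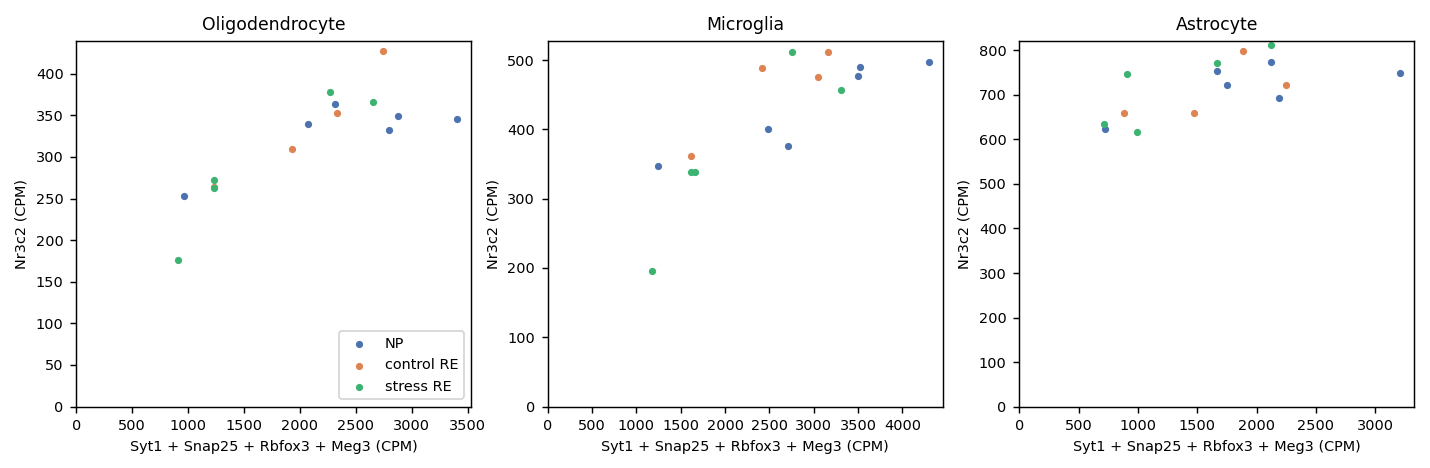
Nr3c2 level (CPM) in oligodendrocytes, microglia and astrocytes against the summed level of Syt1, Snap25, Rbfox3 and Meg3 in the same nuclei (CPM), with 1 point per mouse coloured by group. In oligodendrocytes the 5 mice with the lowest sums, up to 1234 CPM, are those with the lowest Nr3c2.

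The ratio of Nr3c2 to Nr3c1 UMIs is taken within a library, so it needs no scaling factor. Which mice give a ratio does depend on depth, as a mouse needed enough UMIs of each receptor. The ratio was highest in CA2, with a geometric mean of 62.8 Nr3c2 UMIs per Nr3c1 UMI over 15 mice, and CA2 led in 15 of 15 mice. The CA2 ratio was 85.3, 63.2, 45.9, 37.3, 63.2 and 63.5 in NP mice, 61.7, 60.1, 44.4 and 90.5 in control RE mice, and 114, 64.1, 64.0, 69.5 and 51.5 in stress RE mice. It rested on 500 Nr3c1 UMIs in all, and with nuclei assigned by their own marker UMIs instead of clusters the mean log2 ratio was 4.75 in place of 5.97, beside 4.60 in CA3. CA3 had a ratio of 26.5 (20.2 to 36.1), below CA2 by a log2 of 1.24 ± 0.39 (15 of 15 mice) with classes from clusters, and dentate granule neurons 13.4 (10.3 to 16.4), below CA3 by 0.98 ± 0.24 (15 of 15 mice). Mossy cells were at 13.4 (n = 12), Adarb2 interneurons at 12.9, habenula neurons at 11.2 (n = 7) and CA1 at 10.9, and neighbours from dentate granule neurons down to CA1 did not differ beyond their spread. CA1 exceeded subiculum, at 8.79 (n = 13), by a log2 of 0.36 ± 0.30 (11 of 13 mice).

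Glial and vascular classes had the lower ratios. Astrocytes had 3.06, vascular leptomeningeal nuclei 1.96, endothelial nuclei 1.92, oligodendrocyte precursors 1.48, oligodendrocytes 1.34 and microglia 1.09 (0.510 to 1.73). The counts were not corrected for free RNA, and its part in these ratios and in their order was not tested. Thalamic excitatory neurons had the lowest mean of 24 classes with a value, at 0.891 (0.718 to 1.25), and were lowest in 7 of 15 mice, with newly formed oligodendrocytes lowest in 5 and microglia in 3. With doublets kept, newly formed oligodendrocytes had the lowest mean. With doublets removed, the log2 ratio in CA2 exceeded that in thalamic neurons by 6.14 ± 0.48 (15 of 15 mice). Per kilobase of gene body the ratio was 19.8 in CA2, 8.35 in CA3, 4.23 in dentate granule neurons, 0.965 in astrocytes, 0.344 in microglia and 0.281 in thalamic neurons, so that astrocytes and microglia were above 1 on UMIs and below 1 per kilobase. A mouse gave a ratio only with 10 UMIs or more of each receptor in 10 or more nuclei of the class, which left 7 of 12 mice for habenula and 3 of 9 for progenitors or neuroblasts, and no ratio is given for ependymal nuclei. This rule can leave out high ratios. In mossy cells it left out mouse 70 and in choroid plexus mouse 88, which had the lowest Nr3c1 of those classes, 23.0 and 50.2 CPM.

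**Figure D3:**
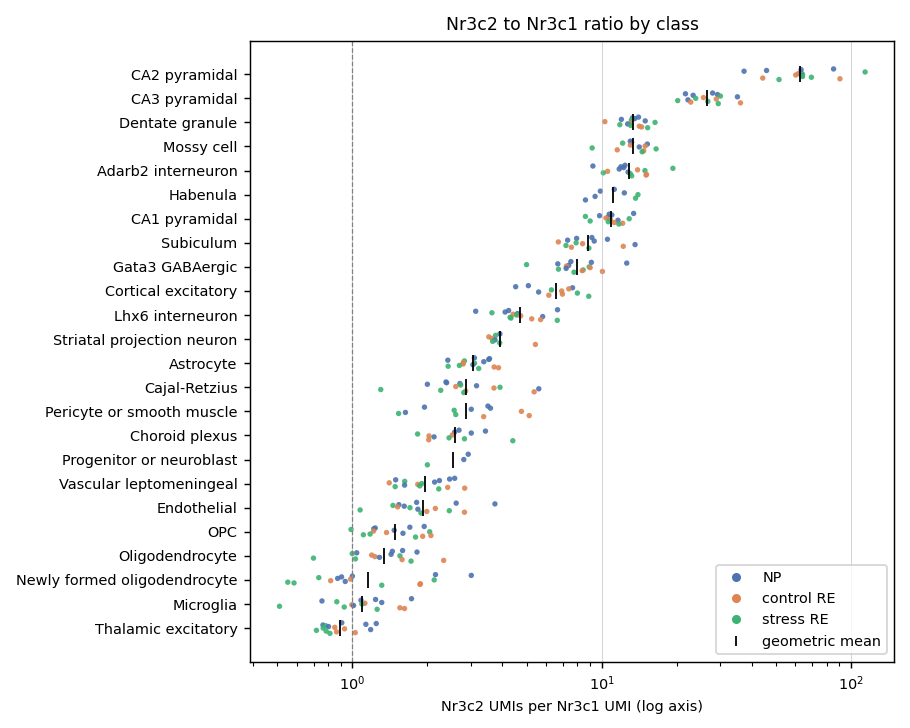
Nr3c2 UMIs per Nr3c1 UMI by class on a log axis, with 1 point per mouse coloured by group, a bar at the geometric mean and a dashed line at equal UMI counts, which is not an equal level per kilobase. The geometric mean falls from 62.8 in CA2 to 0.891 in thalamic excitatory neurons, and all 15 CA2 values lie between 37.3 and 114.

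Classes were not uniform inside. Dentate granule neurons formed cluster 0, with Trpc6 among its leading genes (16832 nuclei), and cluster 1, with Dsp and Chst9 (14548 nuclei). Nr3c2 had 1093 CPM ± 111 in cluster 0 and 1834 CPM ± 207 in cluster 1 (n = 15), lower in cluster 0 in all 15 mice. Nr3c1 had 112 CPM in cluster 0 and 99.2 CPM in cluster 1, higher in cluster 0 by 13.2 CPM ± 3.95 (15 of 15 mice), so that the ratio was 9.71 in cluster 0 and 18.5 in cluster 1. In astrocytes, Hsd11b1 had 74.0 CPM ± 19.5 in cluster 14 and 40.6 CPM ± 9.95 in cluster 17, a difference of 33.4 CPM ± 16.8 (15 of 15 mice), whereas Nr3c1 was lower in cluster 14 (218 CPM) than in cluster 17 (261 CPM) in all 15 mice. A CA3 cluster of 116 nuclei, number 38, was found with at least 10 nuclei in 5 dams and no NP mouse, and had Nr3c2 at 2207 CPM ± 368 (n = 5), higher than in cluster 15, the main CA3 cluster, in all 5. Nr3c1 in cluster 38 was at 15.3 CPM ± 12.5, with fewer than 10 UMIs in each mouse, and the CA2 mean was 38.7 CPM. High Nr3c2 with low Nr3c1 was thus not particular to CA2. NP libraries had fewer barcodes than those of control RE, which bears on reaching 10 nuclei.

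Across the classes, the levels of the 2 receptors were nearly uncorrelated. Over mean log2(CPM + 1) in 25 classes, which share libraries, Pearson's r was 0.02 between Nr3c1 and Nr3c2, −0.01 between Nr3c1 and Hsd11b1, and 0.37 between Nr3c2 and Hsd11b1. Of 15744 genes, the 5 most like Nr3c2 were Fam131a (r = 0.85), Galnt18 (0.82), Cabp7 (0.81), Gabra5, a subunit of GABA-A receptors (0.80), and Arhgef25 (0.80). The 5 most like Nr3c1 were Tm2d1 (r = 0.79), the integrin subunit Itgav (0.78), Extl3 (0.78), Creb3l2 (0.74) and the kinase Map3k7 (0.74). For Hsd11b1 they were the neurotensin receptor Ntsr2 (r = 0.78), Gm35722 (0.76), Lamb3 (0.72), Gm49164 (0.71) and the adenylate kinase Ak4 (0.70), and Lamb3 is the gene that overlaps Hsd11b1 on the other strand.

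None of the 3 genes passed the test between groups in any class and comparison tested, or under the alternatives that could be run for them. Counts were summed per mouse and class and tested with edgeR's quasi-likelihood test, with Benjamini-Hochberg adjustment over all genes of a class and a call at an adjusted p under 0.05. Over all classes, the share of tests of all genes that were called was 0 for control RE minus NP, 0.000955% for stress RE minus control RE (2 of 209360) and 0 for stress RE minus NP, so a count of 0 for the 3 genes is what the background gives. Both calls were in Cajal-Retzius nuclei, where they made 0.0528% of 3789 genes. DESeq2 called 0 of the 3 as well. At an unadjusted p under 0.05, edgeR had Nr3c1 in 0 of 21, 2 of 22 and 2 of 22 classes for control RE minus NP, stress RE minus control RE and stress RE minus NP. The same counts were 1 of 21, 0 of 23 and 0 of 22 for Nr3c2, and 1 of 6, 0 of 6 and 0 of 6 for Hsd11b1, beside 3.16%, 3.01% and 3.70% of all tests. The last 2 comparisons share the stress RE mice, and each group enters 2 of the 3 comparisons.

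In the whole punch, all nuclei of a mouse summed, Nr3c1 had 141 CPM ± 9.21 in NP mice, 137 CPM ± 17.2 in control RE dams and 148 CPM ± 14.2 in stress RE dams. Nr3c2 had 868 CPM ± 90.7, 967 CPM ± 97.5 and 990 CPM ± 188, and Hsd11b1 had 4.78 CPM ± 0.863, 4.65 CPM ± 0.689 and 4.06 CPM ± 0.600. All groups overlapped for the 3 genes. The log2 fold change of Nr3c2 was 0.23 ± 0.16 (standard error) for control RE minus NP, 0.05 ± 0.17 for stress RE minus control RE and 0.28 ± 0.15 for stress RE minus NP, with 95% bounds of −0.03 and 0.58 on the last. It was 0.03, 0.11 and 0.13 for Nr3c1 and 0.04, −0.21 and −0.17 for Hsd11b1 in the same order. For both genes the first of these values, fitted to TMM-scaled counts, has the opposite sign to the difference of the mean CPM. Of 21165 genes tested in the whole punch, 1 (0.00472%) was called for control RE minus NP and 0 in the other comparisons. In a whole punch, a change in the number of nuclei of a class and a change of RNA per nucleus cannot be told apart.

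In dentate granule neurons, Nr3c2 had 1399 CPM ± 89.2 in NP mice, 1344 CPM ± 71.1 in control RE dams and 1531 CPM ± 124 in stress RE dams, and the log2 fold change was −0.01 ± 0.10, 0.18 ± 0.11 and 0.17 ± 0.10 in the order above. Nr3c1 there had 104 CPM ± 8.56, 105 CPM ± 12.5 and 110 CPM ± 6.26, with fold changes of 0.05, 0.06 and 0.11. These dentate values pool clusters 0 and 1, which differ in both receptors. The part of their mix in each mouse in these values was not tested. In CA1, fold changes were 0.08, 0.15 and 0.22 for Nr3c1, 0.08, 0.06 and 0.14 for Nr3c2, and −0.01, −0.10 and −0.11 for Hsd11b1. For Nr3c2 in CA2, the dHF class with the highest level, they were −0.02 ± 0.12, 0.14 ± 0.13 and 0.12 ± 0.11. For Nr3c1 in microglia, the highest of the classes taken as dHF and below endothelial nuclei, they were −0.07 ± 0.12, 0.12 ± 0.13 and 0.05 ± 0.11. In astrocytes they were −0.03, 0.16 and 0.13 for Nr3c1, 0.01, −0.02 and −0.01 for Nr3c2, and −0.01 ± 0.18, −0.07 ± 0.18 and −0.08 ± 0.17 for Hsd11b1, with 95% bounds of −0.36 and 0.33 on the first Hsd11b1 value. The mean Nr3c2 level in astrocytes was 719 CPM in NP mice, 710 CPM in control RE dams and 717 CPM in stress RE dams, so that its first 2 fold changes also have the opposite sign to the means.

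**Figure D4:**
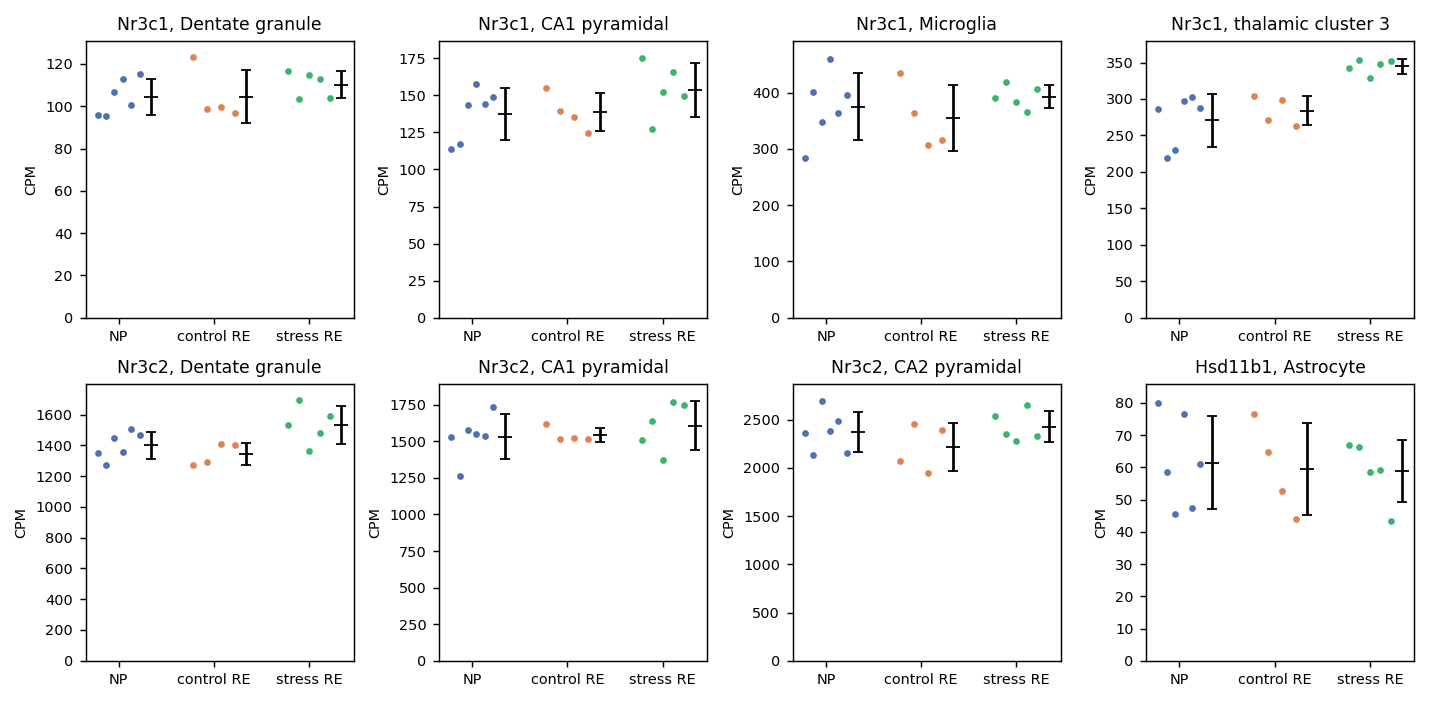
Level (CPM, axis from 0) per mouse in NP, control RE and stress RE for Nr3c1 in dentate granule, CA1, microglia and thalamic cluster 3, Nr3c2 in dentate granule, CA1 and CA2, and Hsd11b1 in astrocytes, with the mean ± SD beside the points. Groups overlap in each panel except Nr3c1 in cluster 3, where stress RE mice lie at 328 to 353 CPM. That panel holds the smallest unadjusted p of all tests of the 3 genes, and it was not called. How many other genes of cluster 3 separate stress RE mice from the rest was not computed.

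The smallest unadjusted p of any test of the 3 genes was for Nr3c1 in thalamic cluster 3. The values were 286, 219, 230, 298, 303 and 288 CPM in NP mice, 304, 271, 298 and 262 CPM in control RE mice, and 343, 353, 328, 348 and 352 CPM in stress RE mice. All 5 stress RE mice were above all 10 others, and how many of the genes tested there separate in this way was not computed. The log2 fold change was 0.38 ± 0.10 for stress RE minus NP (adjusted p = 1.00 by edgeR) and 0.27 ± 0.11 for stress RE minus control RE (adjusted p = 1.00 by edgeR), and neither was called. In cluster 3, 0 of 14200 genes were called in each comparison, and 2.64% and 0.908% of them had an unadjusted p under 0.05. The batch labels place no control RE mouse in batch 1, whereas the methods describe every group in each batch, and the labels were followed. The log2 ratio of the group means, stress RE over NP, was 0.49 in batch 1 (1 stress RE mouse), 0.39 in batch 2 and 0.20 in batch 3, and stress RE over control RE was 0.39 in batch 2 and 0.16 in batch 3. Nr3c2 in the same nuclei was at 261, 257 and 262 CPM in the 3 groups. This cluster was taken as thalamic tissue outside the dHF.

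Elsewhere, the class with the smallest p of each gene and comparison by edgeR was as follows. For control RE minus NP, Nr3c1 in subiculum had a log2 fold change of 0.27 ± 0.17, Nr3c2 in Adarb2 interneurons 0.32 ± 0.14 and Hsd11b1 in dentate granule neurons 0.47 ± 0.18, with adjusted p between 0.971 and 0.986. Hsd11b1 in dentate granule neurons ran from 0.593 to 1.01 CPM in NP and from 1.03 to 1.41 CPM in control RE mice, and its mean level there was no higher, as a share of that in astrocytes, than that of the median astrocyte marker. For stress RE minus control RE, Nr3c2 in striatal projection neurons had −0.25 ± 0.13 (3 mice a group, adjusted p = 0.470; 0.12 with classes from marker UMIs) and Hsd11b1 in oligodendrocytes −0.72 ± 0.55 (adjusted p = 0.998). For stress RE minus NP, Nr3c2 in Adarb2 interneurons had 0.27 ± 0.14 (adjusted p = 0.975) and Hsd11b1 in dentate granule neurons 0.23 ± 0.18 (adjusted p = 1.00). The other values at an unadjusted p under 0.05 were for Nr3c1, named here after they were seen. In subiculum, with 3 stress RE mice, stress RE minus NP was 0.44 ± 0.17, and in newly formed oligodendrocytes stress RE minus control RE was 0.52 ± 0.23, both with an adjusted p of 1.00 by edgeR. Hsd11b1 in mossy cells fell under the filter on low counts, with 83 UMIs, and had 10.7 CPM ± 6.45 in NP mice (n = 4), 22.9 CPM ± 6.96 in control RE dams (n = 4) and 11.1 CPM ± 5.02 in stress RE dams (n = 5). The groups overlapped. Without the filter its log2 fold change was 1.21 ± 0.52, −0.84 ± 0.45 and 0.37 ± 0.53 for the 3 comparisons, with adjusted p from 0.734 to 0.944 by edgeR. The rule for printed fold changes does not cover this class. Unfiltered Hsd11b1 values of the other classes under the filter are not given. Over the classes that passed the filter, 6 of them for Hsd11b1, the log2 fold changes ran from −0.51 to 0.52 for Nr3c1, from −0.48 to 0.32 for Nr3c2 and from −0.72 to 0.64 for Hsd11b1.

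**Figure D5:**
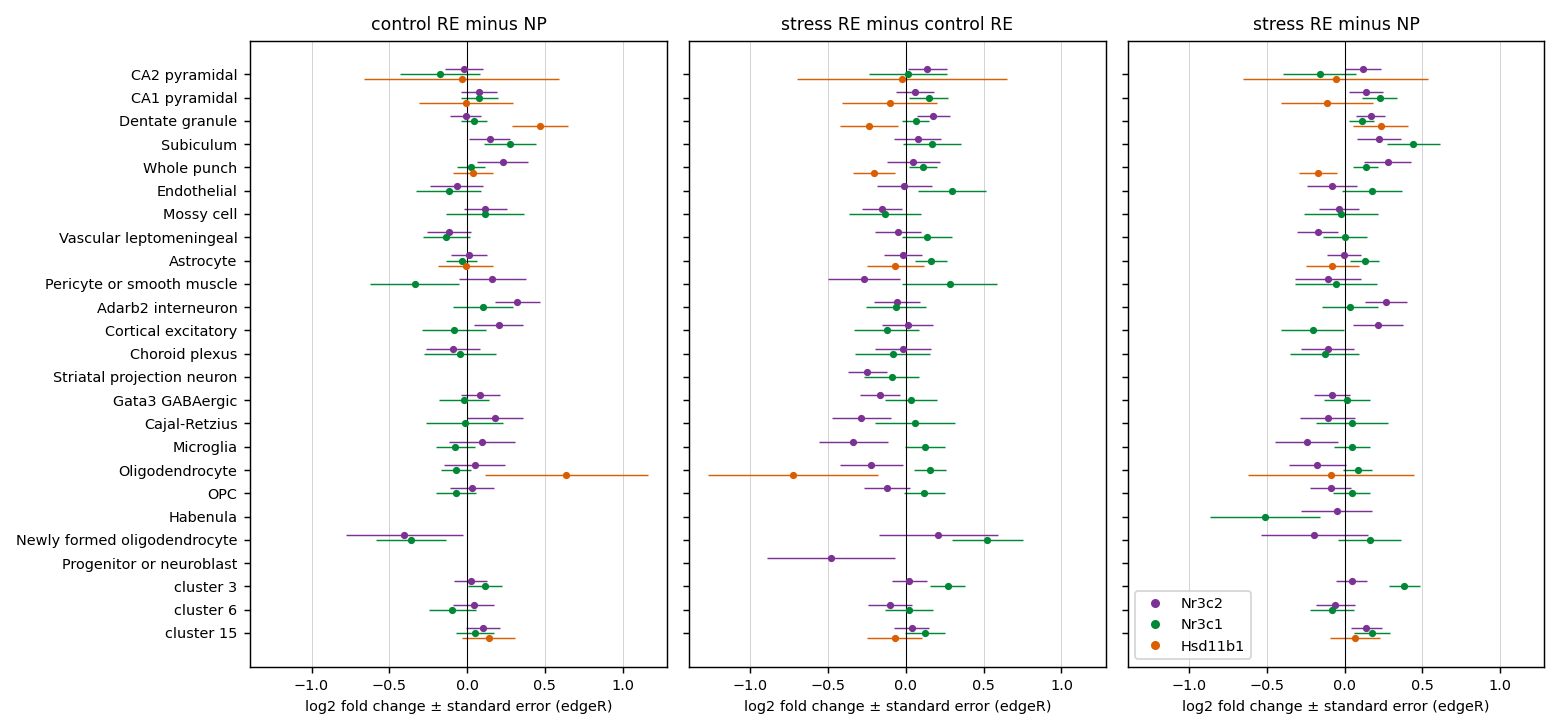
Log2 fold change with its standard error from edgeR, by class or cluster (rows), for Nr3c2, Nr3c1 and Hsd11b1 in the 3 comparisons (panels). No value passed an adjusted p under 0.05, and Nr3c1 in cluster 3 stands at 0.38 ± 0.10 for stress RE minus NP.

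The Nr3c2 to Nr3c1 ratio was compared between groups in 67 exact permutation tests on mice (two-sided), and 0 passed after adjustment, which a single class could not do at these group sizes with 67 tests. In CA2 the geometric mean was 57.7 in NP mice, 62.1 in control RE dams and 69.98 in stress RE dams. Dentate granule neurons had 13.4, 12.9 and 13.9, and the whole punch had 6.14, 7.08 and 6.61. In cluster 3 the ratio was 0.965, 0.905 and 0.759, a log2 difference of −0.25 for stress RE minus control RE (exact permutation p = 0.0159, adjusted p = 0.870) and −0.35 for stress RE minus NP (exact permutation p = 0.0303, adjusted p = 0.870). The smallest p for control RE minus NP was in choroid plexus, with a log2 difference of −0.32 (exact permutation p = 0.0714, adjusted p = 0.870). That value rests on 3 control RE and 5 NP mice. Control RE mouse 88 had too few Nr3c1 UMIs there and was left out, with Nr3c1 at 50.2 CPM and Nr3c2 at 522 CPM. Its Nr3c1 was the lowest of the class, so a mouse of high ratio is missing, and the difference with it was not computed. The test doubles the smaller tail, so no p under 0.0159 can be had with 5 against 4 mice. With 5 against 6 mice the limit is lower. The cluster 3 value for stress RE minus control RE was thus the smallest that these group sizes allow.

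Of 25 genes that serve the receptors, 24 could be tested in at least 1 class, and edgeR called 0 up and 0 down in 400, 429 and 417 tests of the 3 comparisons in the order above. At an unadjusted p under 0.05 there were 19, 19 and 9 tests, and 10, 12 and 2 of them fell to the 3 immunophilins Fkbp4, Fkbp5 and Ppid in 52, 55 and 55 tests, beside 3.16%, 3.01% and 3.70% of the tests of all genes. The classes come from the same 15 mice, so counts over classes are not counts of independent tests. The chaperone set was Hsp90aa1, Hsp90ab1, Hspa8, Stip1, Ptges3, Bag1 and Dnajb1. It had median log2 fold changes of −0.21, 0.29 and 0.04 over its tests, with 2, 6 and 2 at an unadjusted p under 0.05 by edgeR. Coactivators and corepressors had medians between −0.02 and 0.00. Hsd11b2, which inactivates corticosterone, was at 0.247 CPM in the whole punch. H6pd, which supplies the cofactor of the Hsd11b1 enzyme, was at 4.70 CPM in the whole punch, 17.2 CPM in vascular leptomeningeal nuclei, 16.6 CPM in microglia and 3.10 CPM in astrocytes.

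Fkbp5, an immunophilin that lowers the affinity of the glucocorticoid receptor and is itself induced by it, is named here after its values were seen. Its mean level was 267 CPM in vascular leptomeningeal nuclei, 233 CPM in microglia, 142 CPM in CA2 and 113 CPM in dentate granule neurons. Its log2 fold change was above 0 in 15 of 18 classes for control RE minus NP (median 0.32), in 3 of 19 for stress RE minus control RE (median −0.34) and in 5 of 19 for stress RE minus NP (median −0.11), with 7, 10 and 2 classes at an unadjusted p under 0.05 and none called by edgeR, and how many other genes have such counts was not computed. The first 2 of these comparisons share the 4 control RE mice. In vascular leptomeningeal nuclei the value for stress RE minus control RE was −1.03 ± 0.18 (adjusted p = 0.0659 by edgeR), and DESeq2 called it at −1.04 (adjusted p = 0.00287), as did edgeR without a filter on low counts (adjusted p = 0.00601). The other 6 settings did not call it, with adjusted p from 0.0659 to 0.675, the latter with classes from marker UMIs. In microglia the same comparison gave −0.83 by edgeR, which was not called. For vascular leptomeningeal nuclei, the share of all genes called by DESeq2, or by edgeR without the filter, is not given here. On simulated counts of dentate granule, CA2 and astrocyte classes, DESeq2 made 28, 9 and 16 false calls, and edgeR made 6, 7 and 10.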

How the data were processed

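The authors deposited, for each mouse, whole-number UMI counts per gene and barcode for 32285 genes, made with Cell Ranger (7.1.0 in the submitters' processing notes, 7.0.0 in the file headers) against mm10 (GRCm38) and limited to barcodes called as nuclei. They are as counted, neither normalized nor corrected for doublets or free RNA. Whether intronic reads were counted is not given in the sources used here. The 3 genes and all gene lists were chosen with earlier results of these data known.

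Nuclei needed at least 200 genes and no more than 5% mitochondrial UMIs. Scrublet in scanpy 1.11.5 scored doublets per library, and 9999 were removed at 0.8% per 1000 barcodes. Clusters came from 2000 variable genes without the 3 genes, with 15 neighbours on 30 principal components, by Leiden at resolution 1 (igraph 0.11.9, Python 3.11.15). A cluster of at least 50 nuclei could take the name of a marker list with at least 3 markers detected (5 CPM and 2-fold the median cluster). The mean log2 fold had to be at least 2. There were further conditions on Slc17a7 (50 CPM), on depth and on markers of a second list. Clusters 2, 12 and 31 met the first thresholds but stayed unnamed. Cluster 31 (383 nuclei), whose best list was CA2, had Nr3c2 at 868 CPM (n = 7 mice) and a receptor ratio of 15.05 (n = 5). The CA2 values leave it out. Median depth per nucleus was 3993 to 8754 UMIs across libraries.

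For each class, UMIs were summed within a mouse that had 10 nuclei or more, and a class entered a comparison when both groups had 3 or more such mice. The test was edgeR 4.0.16 in R 4.3.3 (quasi-likelihood, filterByExpr, TMM), fitted to all groups together. Per the methods, dams were caged after weaning with others of their own condition, so mice of a group may share a cage, and p-values then measure only the spread between these mice. The 95% bounds of a fold change are normal bounds from its standard error. DESeq2 1.42.0, RLE scaling, no filter, a batch term, at least 50 nuclei, doublets kept, Leiden resolution 2, classes from the marker UMIs of each nucleus, and leaving out each mouse were alternatives. On simulated data for control RE minus NP edgeR found 63% of changes of a log2 of 1 and 94% of those of 2 among 16554 dentate granule genes, and 48% and 88% among 8650 CA2 genes. Smaller changes were not simulated. Many genes were changed at once, which eases the adjusted threshold, whereas few or none were called in the real fits. These shares may thus be too high for a lone changed gene. By the rule for named genes, fold changes are printed for the whole punch, dentate granule, CA1 and astrocyte classes, the dHF class with the highest level, and the smallest p of each gene and comparison, and the 5 genes of most like pattern are named.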

Additional observations from a re-analysis of the deposited data

Results flagged for a closer look

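In 6 of 72 sets of 4 to 6 mice checked (a quantity, class and group), 1 mouse stood apart from the rest of its group by Dixon's criterion at 95%, which chance alone meets in about 1 of 20 sets. Control RE mouse 66 had Nr3c1 at 123 CPM in dentate granule neurons, with the other 3 mice at 96.6 to 99.5 CPM. The same mouse had Nr3c2 at 1616 CPM in CA1, with the others at 1515 to 1521 CPM. Hsd11b1 in CA2 was 25.8 CPM in control RE mouse 87, with the others at 1.92 to 5.82 CPM, and 16.7 CPM in stress RE mouse 75, with the others at 3.34 to 5.55 CPM. Both of these rest on few UMIs, as all CA2 nuclei together held 91 UMIs of Hsd11b1. In the whole punch, control RE mouse 88 had Hsd11b1 at 3.62 CPM, with the others at 4.91 to 5.08 CPM. Stress RE mouse 43 had a Nr3c2 to Nr3c1 ratio of 114 in CA2, with the others at 51.5 to 69.5.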

How the results depend on the processing

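No call was gained or lost: the 3 genes and the receptor ratio had 0 calls in each of the 54 counts under other settings and the 135 counts with a mouse left out. For the ratio a single class could not pass, and almost no gene was called in the main fits. These counts could thus hardly differ from 0. Of fold changes, 345 kept their sign and 17 did not under other settings, and 693 and 41 with a mouse left out. None of those that turned had been called, and the cause was not tested. With a batch term, control RE minus NP became −0.025 for Nr3c1 in the whole punch, −0.014 in dentate granule neurons and −0.042 in CA1, 0.091 for Hsd11b1 in CA1 and 0.082 in astrocytes, and stress RE minus NP became 0.00308 for Nr3c2 in astrocytes. With classes from marker UMIs, Nr3c2 for control RE minus NP was 0.00361 in dentate granule neurons and 0.055 in CA2, for stress RE minus control RE 0.020 in astrocytes and 0.12 in striatal projection neurons, for stress RE minus NP 0.025 in astrocytes, and Hsd11b1 in CA1 was 0.061 for control RE minus NP. With doublets kept, Nr3c2 in astrocytes was 0.00634 for stress RE minus control RE and 0.086 for stress RE minus NP, and the log2 ratio difference in CA2 for control RE minus NP was −0.077. For control RE minus NP, Hsd11b1 at Leiden resolution 2 was 0.054 in CA1 and 0.010 in astrocytes, and without a filter 0.016 in CA1.

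Of levels and ratios per class, 434 moved by less than the SD between mice and 59 by more. Nr3c2 in CA2 was 2037 CPM with doublets kept and 1944 CPM with classes from marker UMIs, the CA2 log2 ratio was 4.75 with the latter (4.60 in CA3), and the thalamic log2 ratio was 0.089 with doublets kept against −0.17. CA2 stayed highest for Nr3c2 and the ratio, and astrocytes for Hsd11b1, under all 5 alternatives for levels. The highest class for Nr3c1 was microglia with classes from marker UMIs and endothelial otherwise. Its lowest class was Gata3 GABAergic with classes from marker UMIs, at 45.9 CPM, and habenula otherwise.

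With a mouse left out, fold changes for control RE minus NP, stress RE minus control RE and stress RE minus NP ran from −0.15 to 0.10, −0.18 to 0.075 and −0.15 to 0.0091 for Hsd11b1 in astrocytes, from −0.30 to 0.17, −0.28 to 0.19 and −0.22 to 0.055 for Hsd11b1 in CA1, and from −0.057 to 0.050, −0.070 to 0.051 and −0.063 to 0.058 for Nr3c2 in astrocytes. For control RE minus NP, Nr3c1 ran from −0.081 to 0.034 in astrocytes, −0.027 to 0.084 in dentate granule neurons and −0.038 to 0.089 in the whole punch, and Nr3c2 from −0.085 to 0.041 in CA2 and −0.061 to 0.028 in dentate granule neurons. Nr3c1 in microglia ran from −0.018 to 0.11 for stress RE minus NP, and Nr3c2 in the whole punch from −0.058 to 0.17 for stress RE minus control RE. Values that kept their sign also moved. Nr3c2 in striatal projection neurons ran from −0.35 to −0.14 for stress RE minus control RE, and in the whole punch from 0.17 to 0.41 for stress RE minus NP. Log2 ratio differences ran from −0.075 to 0.27 and −0.00498 to 0.35 in CA2 for control RE minus NP and stress RE minus control RE, from −0.11 to 0.052, −0.00481 to 0.16 and −0.013 to 0.10 in dentate granule neurons for the 3 comparisons, and from −0.21 to 0.062 in the whole punch for stress RE minus control RE. Nr3c1 in cluster 3 ran from 0.31 to 0.44 for stress RE minus NP and from 0.23 to 0.31 for stress RE minus control RE. These refits covered 10 classes or clusters and the whole punch, and cluster 3 has no value with doublets kept, at resolution 2 or with classes from marker UMIs.

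No paired analysis was possible because replicate numbers here are only accession order. By the labels, batch 1 held no control RE mouse. In astrocytes and dentate granule neurons Hsd11b1 rests on 2076 and 309 UMIs.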

Other observations

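By batch, Nr3c1 in the whole punch was at 134 CPM ± 4.80 in batch 1 (n = 3), 134 CPM ± 9.75 in batch 2 and 154 CPM ± 9.63 in batch 3 (n = 6 each), and in dentate granule neurons at 98.1, 103 and 114 CPM. Nr3c2 in dentate granule neurons was at 1436 CPM ± 224.5, 1453 CPM ± 100.3 and 1400 CPM ± 92.5, and Hsd11b1 in astrocytes was at 68.3, 50.7 and 65.3 CPM in these batches.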
